A study of Homo sapiens with 12 samples.

Results

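The CYP3A cluster is a run of 4 related genes on chromosome 7, CYP3A5, CYP3A7, CYP3A4 and CYP3A43, and it was described here through the histone-mark peaks of HepG2 cells that fell on it. Its members were the peaks of 3 pooled lists that shared at least 1 bp with chr7:99230000-99480000 (GRCh37, the build also named hg19), a window of 250 kb. They numbered 77 of 273822 peaks in all: 23 of 66586 H3K27ac peaks, 51 of 182755 H3K4me1 peaks and 3 of 24481 H3K4me3 peaks. On GRCh37, CYP3A5 lies at chr7:99245812-99277649, CYP3A7 at chr7:99302660-99332819 and CYP3A4 at chr7:99354583-99381811, all transcribed from the minus strand. CYP3A43 lies at chr7:99425636-99463718 on the plus strand, so that the starts of CYP3A4 and CYP3A43 face away from each other across 43.8 kb.

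HepG2 is an established human line from a hepatocellular carcinoma, labelled as liver and as untreated. Chromatin immunoprecipitation with antibodies to H3K27ac, H3K4me1 or H3K4me3 was followed by sequencing, with 3 libraries per mark, and a further 3 libraries served as control. The controls were titled input but carried an anti-mouse IgG antibody label, and their values were not analysed here. Each list pooled the replicates of 1 mark, so no value per library exists in what was analysed, no spread between cultures can be given and no difference was tested. Whether the labelled liver line carried marks at hepatocyte marker genes was not analysed here.

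CYP3A enzymes are cytochrome P450 monooxygenases of the liver and gut that oxidise steroids, bile acids and a large share of prescribed drugs. CYP3A4 is the main adult form, CYP3A7 the main fetal liver form, CYP3A5 a form whose level varies between people through a common splicing variant, and CYP3A43 a form of low abundance. The nuclear receptors PXR (NR1I2) and CAR (NR1I3), paired with RXR, induce CYP3A4 through an everted repeat of a receptor binding sequence near the gene start and through an upstream xenobiotic-responsive enhancer module (XREM), while a more distant constitutive liver enhancer module (CLEM4) is bound by liver-enriched factors. H3K27ac marks active promoters and enhancers, H3K4me1 enhancers and the shoulders of promoters whether active or not, and H3K4me3 the starts of transcribed genes.

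The 4 promoters are shown because the marks were read around these starts and because those of CYP3A4 and CYP3A7 are close in sequence. Each line gives the 250 bases before the start, 5′ to 3′ on the gene's strand, from RefSeq on GRCh38.p14. The positions there are chr7:99679997-99680246 for CYP3A5, chr7:99735197-99735446 for CYP3A7 and chr7:99784185-99784434 for CYP3A4, all on the minus strand, and chr7:99827763-99828012 for CYP3A43 on the plus strand. These positions are not to be set against the GRCh37 positions of the peaks, and the start used by RefSeq need not be the same base as the one used for the peaks. Capitals mark the stretch closest to the everted repeat with 6 bases between its arms (ER6, whose arms read TGAACT and AGGTCA) and, where present, the TATA box letters TATAAA.
CYP3A5: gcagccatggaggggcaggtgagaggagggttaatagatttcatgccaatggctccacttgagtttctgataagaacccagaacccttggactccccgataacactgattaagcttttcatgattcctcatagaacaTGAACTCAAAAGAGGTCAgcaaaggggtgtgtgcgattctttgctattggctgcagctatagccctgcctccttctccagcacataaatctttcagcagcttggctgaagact
CYP3A7: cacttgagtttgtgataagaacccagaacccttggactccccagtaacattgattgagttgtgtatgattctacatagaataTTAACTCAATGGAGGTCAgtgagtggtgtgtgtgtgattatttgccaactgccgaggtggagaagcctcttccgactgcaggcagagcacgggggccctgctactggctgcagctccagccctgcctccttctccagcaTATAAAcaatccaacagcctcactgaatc
CYP3A4: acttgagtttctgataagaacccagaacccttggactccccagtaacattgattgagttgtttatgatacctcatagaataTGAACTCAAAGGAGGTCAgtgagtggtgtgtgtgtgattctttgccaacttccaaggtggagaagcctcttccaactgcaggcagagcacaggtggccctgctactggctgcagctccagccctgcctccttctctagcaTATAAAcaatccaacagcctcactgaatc
CYP3A43: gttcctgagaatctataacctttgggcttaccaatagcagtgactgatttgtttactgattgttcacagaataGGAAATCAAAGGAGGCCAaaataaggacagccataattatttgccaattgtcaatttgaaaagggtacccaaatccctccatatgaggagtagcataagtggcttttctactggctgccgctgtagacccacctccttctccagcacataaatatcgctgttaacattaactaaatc

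CYP3A5 and CYP3A4 held the ER6 exactly, beginning 113 and 169 bases before the start. The closest stretch in CYP3A7 differed from it by G2T and that in CYP3A43 by T1G, C5A and T16C, where the motif's base comes first and positions count from 1 at the motif's 5′ end. Of 35116 RefSeq promoters of 300 bases (the 250 shown and 50 after the start), searched on both strands, 3 (0.00854%) held the ER6, the other being that of ITGB1BP2, which is named for completeness after the count was seen. The arm AGGTCA, which is part of the ER6, was found in the promoters of CYP3A5, CYP3A7 and CYP3A4 and in 13.8% of all promoters. The sequence AGTTCA, which on the opposite strand is the other part of the ER6, was found in CYP3A5 and CYP3A4 and in 10.4% of all. TATAAA stood 29 bases before the start in CYP3A7 and CYP3A4 and was found in 4049 of all promoters, with no match in CYP3A5 or CYP3A43. CCAAT was found in CYP3A5 and CYP3A43 and in 34.6% of all. A match is a description of letters, not a bound site. The ER6 was searched with fixed arms, and such a repeat is known near the CYP3A4 start, so its match there is no independent finding. Other forms of the repeat were not searched. A difference from those arms therefore does not show that CYP3A7 or CYP3A43 lacks such an element.

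Aligned end to end over the 300 bases, the promoters of CYP3A7 and CYP3A4 were identical in 93.7% of alignment columns (282 of 301). Each other pair was identical in 54.5% to 65.8% of columns. Columns with a gap counted as differences, so a shift between like stretches lowers these shares. CYP3A5 and CYP3A4 were identical in 207 of 359 columns, more columns than the 300 bases of either promoter. Gaps thus made up part of that difference, and identity without gaps was not computed. Of the 250 words of 51 bases (the read length) in the CYP3A7 promoter, 10 occurred in the CYP3A4 promoter, and the other 5 pairs shared none. A single read from such a word cannot be assigned to 1 of the 2 genes by its own sequence. The libraries were read as pairs, so a mate from outside these words could still place the pair. How the authors treated such reads is not given in the sources used here.

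H3K27ac and H3K4me1 peaks were dense over the cluster beside most windows of the same length, though not beside the windows adjoining it. Its 3 H3K4me3 peaks had low signal values. H3K27ac peaks covered 33.1 kb (13.3%) of the window, H3K4me1 peaks 70.5 kb (28.2%) and H3K4me3 peaks 2.76 kb (1.10%). Chromosomes 1 to 22 and X were divided into 12127 windows of the same length, whose median count was 1 H3K27ac peak, 7 H3K4me1 peaks and 1 H3K4me3 peak. At least 23 H3K27ac peaks were found in 5.58% of those windows and at least 51 H3K4me1 peaks in 6.39%. At least 3 H3K4me3 peaks were found in 28.2% of them, so the cluster did not stand apart in that count. The windows were not matched for gene content, and the ranks describe this window without a test. The adjoining windows to the left and right held more peaks than the cluster, with 26 and 34 for H3K27ac and 53 and 64 for H3K4me1. In bases, H3K4me1 covered less of the left one (42.3 kb) and more of the right one (82.2 kb). The high counts were thus not particular to the CYP3A genes.

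**Figure D1:**
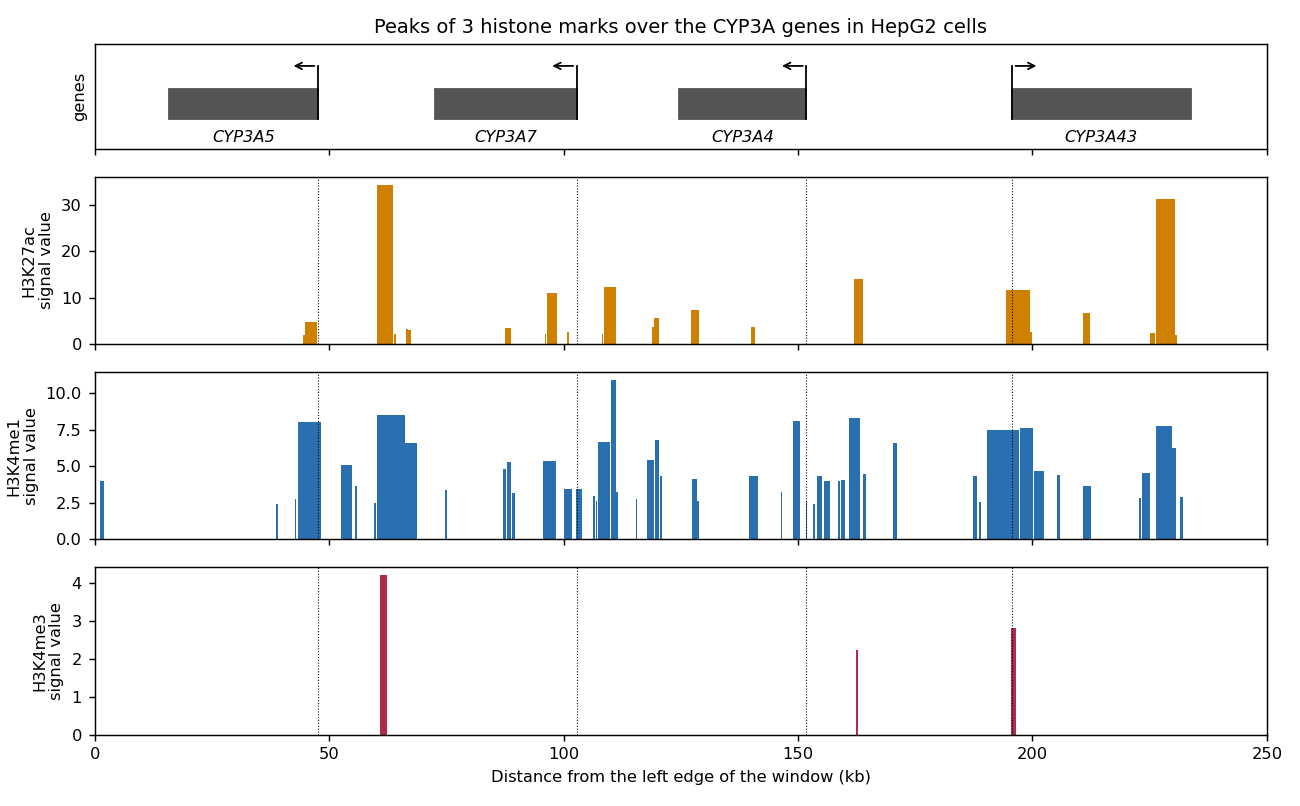
Peaks of the 3 marks over the window, with distance from its left edge in kb on the x axis and the authors' signal value of each peak as bar height, on a separate scale for each mark. Arrows and dotted lines give the 4 gene starts and the direction of transcription. The 2 tallest H3K27ac peaks (34.3 and 31.2) stand away from the starts, and 3 H3K4me3 peaks are seen in all.

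The signal value is the authors' own strength of a peak, read here only against other peaks of the same list. H3K27ac values in the window ran from 1.88 to 34.3 with a median of 3.61, beside a median of 3.15 over that whole list on chromosomes 1 to 22 and X, and 13 of 23 (56.5%, 95% Wilson interval 36.8 to 74.4) stood at or above the list's median. H3K4me1 values ran from 2.42 to 10.9 with a median of 4.30, beside 3.42 over the list, and 35 of 51 (68.6%, 55.0 to 79.7) stood at or above the median. H3K4me3 values were 4.21, 2.81 and 2.22, beside a list median of 13.3, so that 0 of 3 (0 to 56.1) reached it. By construction 50% of a list stands at or above its median, a share that lay below the interval for H3K4me1 and inside those for H3K27ac and H3K4me3. Wilson intervals cover counting error only and treat neighbouring peaks as independent, which they may not be.

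**Figure D2:**
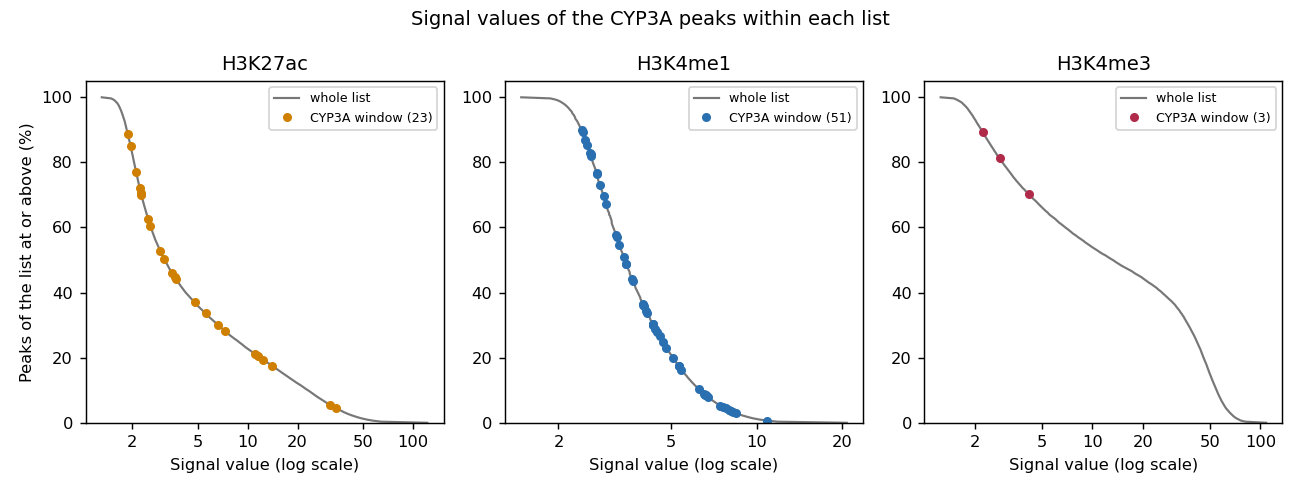
Signal value (x axis, log scale) against the percentage of the list's peaks at or above that value (y axis), with the whole list as a grey curve and the cluster's peaks as points. H3K27ac and H3K4me1 points run along most of the curve, up to 34.3 and 10.9, whereas the 3 H3K4me3 points lie at 4.21 or below.

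The first question for each gene was which marks lay within 1 kb of its start. H3K4me1 was present at 4 of 4 starts, H3K27ac at those of CYP3A5 and CYP3A43, and H3K4me3 at that of CYP3A43 alone. CYP3A4 and CYP3A7, the main adult and fetal enzymes, thus had no H3K27ac and no H3K4me3 peak within 1 kb of their starts. The share of all genes with each mark at the start was not analysed here, so these counts have no background. Exons and introns under the peaks were not analysed here either.

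CYP3A43 had 3 of 3 marks on its start. The H3K4me3 peak chr7:99425510-99426540 had a signal value of 2.81, which 81.2% of its list reached or exceeded, and its summit lay 0.413 kb inside the gene. The H3K27ac peak chr7:99424276-99429406 (signal value 11.6) spanned 5131 bp, wider than all but 3.31% of its list. The H3K4me1 peak chr7:99420272-99427190 (7.45) was the widest of the cluster at 6919 bp and reached 5.36 kb upstream of the start, and a further H3K4me1 peak (7.61) followed it into the gene. The summits of the H3K27ac peak and of the H3K4me1 peak over the start lay 1.35 and 1.279 kb inside the gene. The start of CYP3A43 was thus covered by wide H3K27ac and H3K4me1 peaks that were highest further inside the gene. A weak H3K4me3 peak lay within both.

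At CYP3A5 the H3K4me1 peak chr7:99273481-99278349 (8.02) covered the start and the promoter side up to 0.700 kb upstream. Its summit lay 1.934 kb inside the gene. Only 3.79% of the H3K4me1 list was as strong or stronger. The H3K27ac peak chr7:99274907-99277374 (4.76) ended 275 bp inside the gene, with its summit 0.974 kb downstream of the start, and so lay in the first part of the gene and not on the promoter. No H3K4me3 peak was nearer than 13.3 kb.

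At CYP3A7 an H3K4me1 peak of middling strength, chr7:99332569-99333929 (3.47), covered the start, and its summit lay 0.030 kb upstream. In its list 48.8% of peaks were as strong or stronger. The nearest H3K27ac peak, chr7:99330704-99331237 (2.50), ended 1.58 kb inside the gene, and the nearest H3K4me3 peak was 40.5 kb away. The next H3K27ac peak in the gene, chr7:99326440-99328584, was stronger (11.0) and lay 4.24 to 6.38 kb downstream of the start.

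At CYP3A4 the start was covered only by the H3K4me1 peak chr7:99381623-99381987, with a signal value of 2.59 and a −log10 q-value (the authors' significance of the peak after correction for multiple testing) of 2.66. It was 365 bp wide, and 82.7% of its list was as strong or stronger, which makes it the weakest of the 4 H3K4me1 peaks over CYP3A starts. It is also the only one of them that did not reach a −log10 q-value of 5. A much stronger H3K4me1 peak, chr7:99378944-99380453 (8.10), lay 1.36 to 2.87 kb inside the gene. The nearest H3K27ac peak began 10.04 kb upstream and the nearest H3K4me3 peak 10.7 kb upstream. The ranking is of whole peaks, and signal at the starts themselves was not measured. The H3K4me1 peaks over the starts of CYP3A5 and CYP3A43 had summits 1.934 and 1.279 kb inside those genes. The summit of the H3K4me1 peak of 8.10 lay at a like distance, 1.996 kb inside CYP3A4, but that peak did not reach the start.

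**Figure D3:**
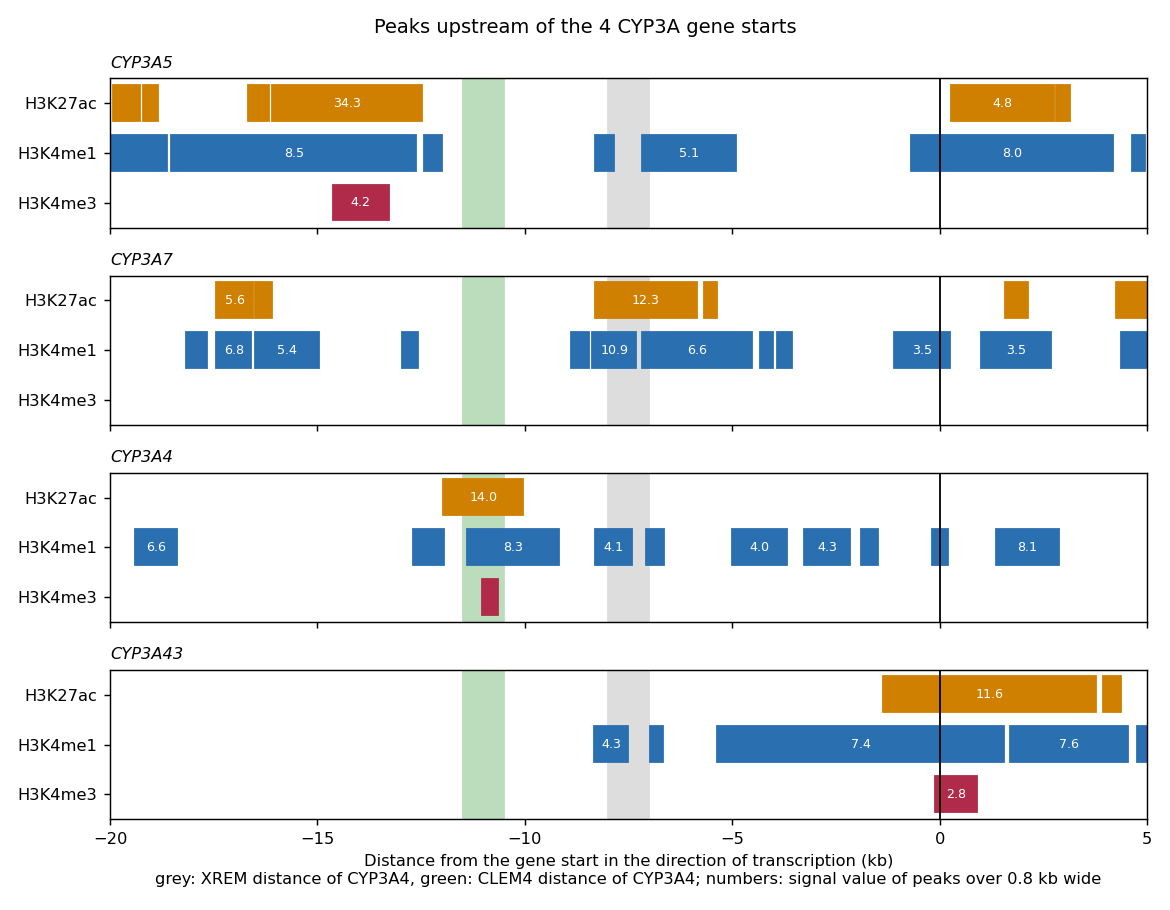
Peaks from 20 kb upstream to 5 kb downstream of each gene start, with distance in kb in the direction of transcription on the x axis and 1 row for each mark. Blocks are peaks and the numbers on the wider ones are signal values. Grey and green bands give the distances of the XREM and of CLEM4 of CYP3A4, and acetylation covers the green band at CYP3A4 (14.0) and the grey band at CYP3A7 (12.3).

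Upstream of CYP3A4, acetylation was confined to 1 peak in the 20 kb read there. The H3K27ac peak chr7:99391849-99393788 (14.0, in the strongest 17.5% of its list) lay 10.04 to 12.0 kb upstream of the start and covered 100% of the 1 kb stretch centred 11 kb upstream, the distance at which CLEM4 is known to lie, with positions rounded and taken from general knowledge. The H3K4me1 peak chr7:99390978-99393202 (8.28, in the strongest 3.24%) covered 89.1% of that stretch. A narrow H3K4me3 peak of 376 bp, chr7:99392465-99392840, with a signal value of 2.22, lay inside it too, and its summit stood 10.866 kb upstream, beside the H3K27ac summit at 10.883 kb. In the 20 kb upstream of CYP3A4 this was the only place with all 3 marks.

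The XREM distance of CYP3A4, 7 to 8 kb upstream, had H3K4me1 without acetylation. The H3K4me1 peaks chr7:99388467-99388889 (3.98) and chr7:99389220-99390133 (4.09) covered 67.0% of it, and no H3K27ac or H3K4me3 peak touched it. The 20 kb upstream held 9 H3K4me1 peaks in all, covering 8.34 kb (41.7%), beside 1.94 kb (9.70%) for H3K27ac and 0.376 kb (1.88%) for H3K4me3. The other H3K4me1 peaks of that stretch were chr7:99383300-99383700 (2.43), chr7:99383968-99385081 (4.31) and chr7:99385486-99386820 (4.01) on the side of the gene, and chr7:99393768-99394507 (4.46) and chr7:99400202-99401214 (6.58) beyond CLEM4. The ninth was the peak over the start itself. The 20 kb upstream of CYP3A4 was thus widely marked by H3K4me1 and acetylated at the CLEM4 distance alone.

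The same distances read differently at the other 3 genes. At CYP3A7 it was the 7 to 8 kb stretch that was acetylated: the H3K27ac peak chr7:99338680-99341138 (12.3) covered 100% of it. The strongest H3K4me1 peak of the whole cluster, chr7:99340139-99341199 (10.9), which only 0.667% of its list reached or exceeded, lay there as well. Together with the peak beside it, H3K4me1 covered 87.0% of the stretch. At the CLEM4 distance CYP3A7 had no peak of any of the 3 marks.

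At CYP3A5 the 7 to 8 kb stretch held 2 H3K4me1 peaks (34.1% covered) and at CYP3A43 it held 1 (47.9% covered), with no acetylation at either. The CLEM4 distance was without a peak at both. CYP3A4 and CYP3A7, whose promoters were alike in sequence, thus had acetylation at different ones of these 2 distances. Whether sequences like the XREM or CLEM4 exist upstream of CYP3A5, CYP3A7 or CYP3A43 was not analysed here, and a distance alone does not identify such an element.

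The 2 strongest H3K27ac peaks of the cluster lay at no start of the 4 genes. The first, chr7:99290121-99293734 (34.3, in the strongest 4.40% of its list), stood between CYP3A5 and CYP3A7, 12.5 to 16.1 kb upstream of the CYP3A5 start and beyond the end of CYP3A7. The other, chr7:99456397-99460394 (31.2, in the strongest 5.56%), lay within CYP3A43, 30.8 to 34.8 kb downstream of its start. Together they held 23.0% of the acetylated bases, and the next value in order was 14.0, so they stood well apart from the rest of the cluster.

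The region between CYP3A5 and CYP3A7 carried the strongest H3K4me3 peak of the cluster, chr7:99290927-99292281 (4.21), inside the acetylated peak. Its summit was 13.889 kb upstream of the CYP3A5 start. In its list 70.2% of peaks were as strong or stronger, so H3K4me3 there was weak although the acetylation was strong. H3K4me1 lay over both, in chr7:99290269-99296171 (8.49), which at 5903 bp was wider than all but 0.824% of its list. With RefSeq genes ordered by their lower coordinate, the readthrough gene CYP3A7-CYP3A51P and the pseudogene CYP3A51P come after CYP3A5 and before CYP3A7. That order does not show how far either reaches, so it places no gene start between CYP3A5 and CYP3A7. The GRCh37 positions of both were not analysed here.

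The acetylated region inside CYP3A43 had H3K4me1 (chr7:99456449-99459764, signal value 7.77) and no H3K4me3. The 2 places of strong acetylation in the cluster thus differed in H3K4me3. A further region inside this gene, chr7:99440758-99442311, had H3K27ac (6.64) over H3K4me1 (3.66).

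Along the window the marks were unevenly spread. The body of CYP3A43 had the highest share of acetylated bases (29.2%), followed by the stretch between CYP3A5 and CYP3A7 (20.5%), that between CYP3A7 and CYP3A4 (18.7%) and the CYP3A7 body (13.9%). The bodies of CYP3A4 (9.34%) and CYP3A5 (8.78%) and the stretch between CYP3A4 and CYP3A43 (7.53%) had less. H3K4me1 covered 49.3% of the stretch between CYP3A5 and CYP3A7, 42.3% of that between CYP3A7 and CYP3A4 and 33.8% of that between CYP3A4 and CYP3A43, against 15.2%, 24.4% and 19.4% of the bodies of CYP3A5, CYP3A7 and CYP3A4. For these 3 genes the stretch upstream of the start was therefore more widely marked by H3K4me1 than the gene, while in CYP3A43 the body itself was widely marked (41.6%). The stretch between CYP3A4 and CYP3A43 is upstream of both genes. Of its 14.8 kb of H3K4me1, 5.36 kb belonged to the peak over the CYP3A43 start. The 20 kb nearest the CYP3A4 start were covered to 41.7%.

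**Figure D4:**
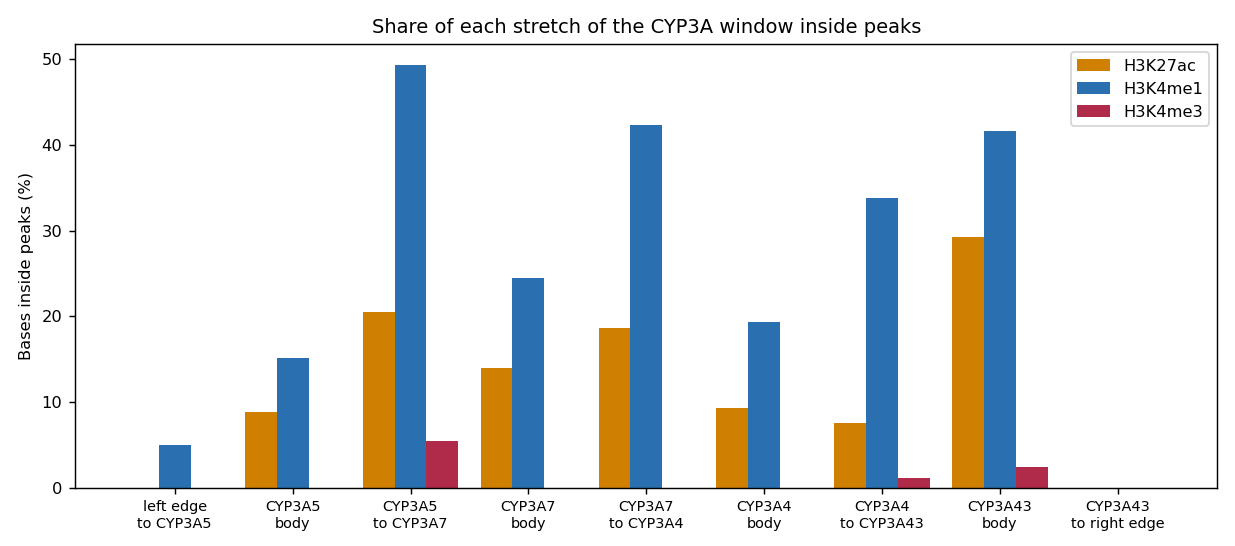
Percentage of bases inside peaks of each mark (y axis, from 0) for the 9 stretches of the window in order along the chromosome (x axis). H3K4me1 is highest between CYP3A5 and CYP3A7 (49.3%), H3K27ac in the CYP3A43 body (29.2%), and the stretch right of CYP3A43 has none of the marks.

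Within the CYP3A4 body, H3K27ac was found at chr7:99357267-99358854 (7.27), 23.0 to 24.5 kb downstream of the start, and at chr7:99369955-99370908 (3.61). Each overlapped H3K4me1. Between CYP3A7 and CYP3A4 a lesser region, chr7:99349369-99350259, had H3K27ac (5.56) and H3K4me1 (6.75) at 16.6 to 17.4 kb upstream of the CYP3A7 start. The longest stretch without a peak of any mark was chr7:99231956-99268758, 36.8 kb that include most of the CYP3A5 body away from its start. A further 17.8 kb at the right edge and 16.1 kb between CYP3A4 and CYP3A43 held none either.

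The next comparison asked which marks met on the same peaks, counting at least 1 bp in common. Of the 23 H3K27ac peaks, 20 (87.0%, 95% Wilson interval 67.9 to 95.5) overlapped H3K4me1 without H3K4me3, against 59.8% of the whole list. The remaining 3 (13.0%, 4.54 to 32.1) overlapped H3K4me3, against 31.7%, and 0 overlapped neither, against 8.52%. The interval of the first share lay above the share of the whole list, whereas the intervals of the other shares held theirs. These intervals again treat neighbouring peaks as independent, although joining H3K27ac peaks within 1000 bp left 14 regions. The first share also depends on how many H3K4me3 peaks the window holds, so it is not a separate observation. All 23 H3K27ac peaks overlapped H3K4me1 (85.7 to 100), and the 87.4% of the whole list that did so lay inside that interval. H3K4me1 covered 90.9% of the acetylated bases of the cluster, beside 69.4% over the list. H3K27ac summits lay inside an H3K4me1 peak in 21 of 23 cases (91.3%, 73.2 to 97.6), against 68.7% over the list. Both of these list shares include the 31.7% of H3K27ac peaks that overlap H3K4me3, against 13.0% in the cluster. Shares without such peaks were not computed, so the comparison is not of like peaks.

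H3K4me1 without either other mark was the commonest state, with 29 of 51 peaks (56.9%, 43.3 to 69.5), near the 61.6% of the whole list. Overlap with H3K27ac was found for 22 of 51 (43.1%, 30.5 to 56.7), beside 33.4% of the list, a value inside that interval. Of the 3 H3K4me3 peaks, 0 lacked both other marks, beside 3.78% of the list. Each of the 3 overlapped H3K4me1 and H3K27ac, as did 92.7% and 77.5% of the list respectively, shares that the interval of 3 of 3 (43.9 to 100) held.

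At 3 of 3 H3K4me3 summits the position lay inside an H3K4me1 peak, and H3K4me1 covered 100% of the H3K4me3 bases, beside 46.0% over the list. Over the list 40.6% of summits lay so, and 71.4% of those in the weaker 50% by signal value, where all 3 belong. The Wilson interval of 3 of 3 (43.9 to 100) held the share of the weaker 50% and lay just above that of the whole list. The whole-list shares, of summits and of bases, include the stronger peaks, so neither compares like peaks. A share of bases for the weaker 50% was not computed. The 3 places were at the CYP3A43 start, at the CLEM4 distance of CYP3A4 and between CYP3A5 and CYP3A7.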

How the data were processed

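Values came from 3 deposited peak lists, 1 per mark, which going by their names pooled 3 libraries each, read as pairs of 51 bp. The submitters' processing notes name MACS2 and hg19. The aligner, thresholds and use of the controls are not given in the sources used here. In the deposited lists each peak has the authors' signal value, whose reference is not stated, the −log10 q-value, a score (not used) and a summit. Depth per library is unknown.

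Gene positions were those that define the window and were checked against no annotation. The planned reading of regulator and hepatocyte genes, which needs a GRCh37 annotation, was not run. Peak positions count from 1. Promoters came from RefSeq (GRCh38.p14), with 4 of 4 genes matched. Windows of the same length were laid end to end from each chromosome's first base to the last peak.

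Every member gene, and by rule the strongest, the nearest to each start and those upstream of CYP3A4 among the peaks, were named; others were named after their values were seen. Members and lists were chosen with earlier results of these data known. The comparison with the closest ER6 stretch, promoter alignment, shared bases and summit shares were added later. Interval counting was tested on simulated data. Alternatives were stricter or stronger peaks, joined peaks, other overlaps, other distances and other windows. Python 3.11.15, numpy 2.4.6, scipy 1.17.1 and matplotlib 3.10.9 were used.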

Additional observations from a re-analysis of the deposited data

How the results depend on the processing

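No paired analysis was possible because each list pools its replicates, and no library could be left out for the same reason. Depth behind the peaks is unknown. Over 17 results, 51 alternative values were computed, of which 36 stayed within 1.5 times the value reported, or within its interval for ranks, and 15 moved further.

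The stronger 50% of each list left 13 H3K27ac peaks and 0 H3K4me3 peaks (0 kb covered), with 0 H3K27ac peaks overlapping H3K4me3, 13 overlapping H3K4me1 alone and 17 peaks of H3K4me1 alone. Fewer peaks follow from how that alternative is built. A −log10 q-value of at least 5 left 19 peaks of H3K4me1 alone, and at the CYP3A4 start no peak. Joining peaks within 1000 bp gave 14 H3K27ac and 26 H3K4me1 regions. With 50% of the shorter peak in common, 2 H3K27ac peaks overlapped neither methylation. With the summit, not any part, within 1000 bp, 1 start (CYP3A5) had H3K27ac and 2 (CYP3A7 and CYP3A4) had H3K4me1. CYP3A43 then kept H3K4me3 alone. Within 2000 bp 3 starts had H3K27ac, CYP3A7 being the addition, and CYP3A4 had none. Counted in bases, 4.59% of windows reached the H3K4me1 value and 37.6% the H3K4me3 value. On chromosome 7 alone, 5.19% of windows reached the H3K4me1 count.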

Other observations

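The windows of the same length on either side of the cluster had more H3K4me3. The window to the left, chr7:98979999-99229999, held 12 H3K4me3 peaks covering 30.7 kb, with signal values up to 71.0, and that to the right, chr7:99480001-99730001, held 16 covering 30.5 kb, with values up to 71.5, against 3 peaks covering 2.76 kb and up to 4.21 over the CYP3A genes. H3K4me1 had 53 peaks covering 42.3 kb to the left, 51 covering 70.5 kb over the cluster and 64 covering 82.2 kb to the right, with values up to 9.52, 10.9 and 9.57. H3K27ac had 26 peaks covering 40.7 kb to the left, 23 covering 33.1 kb over the cluster and 34 covering 69.3 kb to the right, with values up to 46.7, 34.3 and 68.4. Genes in the neighbouring windows were not analysed here, and the differences were not tested.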
